A study of Mus musculus with 4 samples.

Results

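The glycolysis enzymes examined here are those encoded by Hk1, Hk2, Gpi1, Pfkl, Pfkp, Aldoa, Tpi1, Pgk1, Eno1 and Ldha, which act between the entry of glucose into the pathway and the formation of lactate. Members were taken by gene symbol, as every probe set that the platform annotation assigns to 1 of these 10 genes and to no other gene, with Affymetrix control probe sets left out. This gave 21 of the 45037 probe sets outside the controls, for 8 of the 10 genes. Gpi1 and Eno1 were not analysed here, and neither was 1 probe set that Hk1 shares with other genes. A filter on dim probe sets (log2 intensity above 5 on at least 2 of the 4 arrays) kept 17 of the 21, with at least 1 for each of the 8 genes. The 4 others belong to Hk1 (1), Pfkl (1) and Pfkp (2) and lay below a log2 intensity of 5 on all arrays.

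RNA came from ARC/s mouse embryos of embryonic day 8.5 with 4 to 5 somites. Foregut endoderm, from the anterior intestinal portal, was compared with a pool of heart mesoderm, head mesoderm and head ectoderm, called mesoderm and ectoderm here, with 2 arrays for each tissue. Each array carried RNA of 15 to 20 tissue pieces pooled from several embryos, so the arrays show the spread between pools and not between embryos. In the second experiment tissues were loosened with trypsin and pancreatin before dissection and in the first they were separated by hand only, so a difference between experiments cannot be told apart from one between dissection methods. Embryos of both tissues and both experiments were of the same strain and stage. A description field calls foregut endoderm 2 ectoderm, whereas its title and tissue label say foregut endoderm.

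Glycolysis splits glucose into pyruvate in the cytosol and yields ATP without oxygen. Hexokinases and phosphofructokinases catalyse its committed, regulated steps, aldolase to enolase carry the sugar phosphates on to pyruvate kinase, and lactate dehydrogenase turns pyruvate into lactate so that the pathway can go on. Early post-implantation embryos are known for a high use of glucose with release of lactate, and many of these genes are known targets of the hypoxia-inducible factors.

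The markers of the tissues bear on every comparison below. All 15 foregut endoderm markers on the list (for example Foxa2 and Cdh1) exceeded their level in the other tissue by at least 2-fold in each experiment, and 14 of 15 neural plate and ectoderm markers were lower in foregut endoderm in each. Heart muscle markers did not follow the labels. Summed over 19 genes, their intensity reached 17345 and 2204 in foregut endoderm 1 and 2, whereas mesoderm and ectoderm 1 had 378.5 and its counterpart in the second experiment 1.16e+05. The array labelled mesoderm and ectoderm 1 thus held little heart muscle signal, although its label names heart mesoderm, and 13 of the 14 kept heart markers were higher in foregut endoderm in the first experiment and lower in the second. Of the heart markers only Tnni3 was at the array floor (within 0.1 log2 units of an array's lowest value), on every array but mesoderm and ectoderm 2. Endothelial markers switched likewise (5 of 5 kept, with Pecam1 at the floor on all arrays), and so did both kept red blood cell markers, while Hba-a1, Alas2 and Epor were at the floor on all arrays. Of all kept genes 25.1% switched in this direction. However, some markers passed the filter only through foregut endoderm 1 and mesoderm and ectoderm 2, which fixed their switch in advance. These were Tnnt2, Myl7, Myl2, Myl4, Actc1, Tnni1, Ttn and Smarcd3 of heart muscle and Kdr, Tek, Erg and Esam of endothelium. The counts of kept markers that switched are thus no support for a switch. Of 9 kept mesenchyme markers 4 switched and 4 were higher in foregut endoderm in each experiment. In such bulk samples fewer cells of a type and less RNA per cell cannot be told apart.

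Message ends were also recovered unequally. For Gapdh, the enzyme after triosephosphate isomerase, the control probe set at the 3′ end exceeded that at the 5′ end by 2.56 and 2.23 log2 units in the second experiment (foregut endoderm, then mesoderm and ectoderm), against 6.45 and 7.04 in the first. For beta-actin (Actb) these gaps were 3.18 and 2.83 in the second experiment and 8.48 and 8.88 in the first. Probe sets for the bacterial poly-A controls (Dap, Lys, Phe and Thr, 3′ end) lay 3.16 to 5.46 log2 units below the first experiment in the second, while the hybridization controls BioB, BioC, BioD and Cre differed by -0.04 to 0.96. The part of these control values in the results below was not tested.

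The first question was whether foregut endoderm differed from its neighbours in glycolytic enzyme messages. With tissue as the only term of the fit, the differences of the members were close to the size of their standard errors or below it. Over the 17 kept probe sets the mean difference, foregut endoderm minus mesoderm and ectoderm, ran from -0.65 to 0.67 log2 units. Its standard errors (SE), which limma moderates with the spread of all kept probe sets, ran from 0.33 to 1.19. With limma 0 of the 17 passed the test (adjusted p = 1 for each, Benjamini-Hochberg over 13288 probe sets), as 0% of all probe sets did, and 0 of the 17 had an unadjusted p under 0.05, against 3.76% of all probe sets. With the replicate number as a block these were 0 of 17 and 9.98%, and the lowest unadjusted p of a member was 0.0628 (Hk1, limma). In that fit the SEs ran from 0.22 to 0.92. Hk1 at -0.65 ± 0.22 and Ldha at -0.50 ± 0.22 exceeded their SEs in it, with adjusted p of 0.515 and 0.558 (limma). All 5 Aldoa probe sets (0.45 ± 0.39 for the brightest, 1434799_x_at) and 1439148_a_at of Pfkl (0.26 ± 0.24) did so as well. These went the other way, with more signal in foregut endoderm. No foregut endoderm marker passed limma's adjusted test either (0 of 15), although all were at least 2-fold higher, so 0 calls in this design of 2 arrays per tissue say little about the members.

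**Figure D1:**
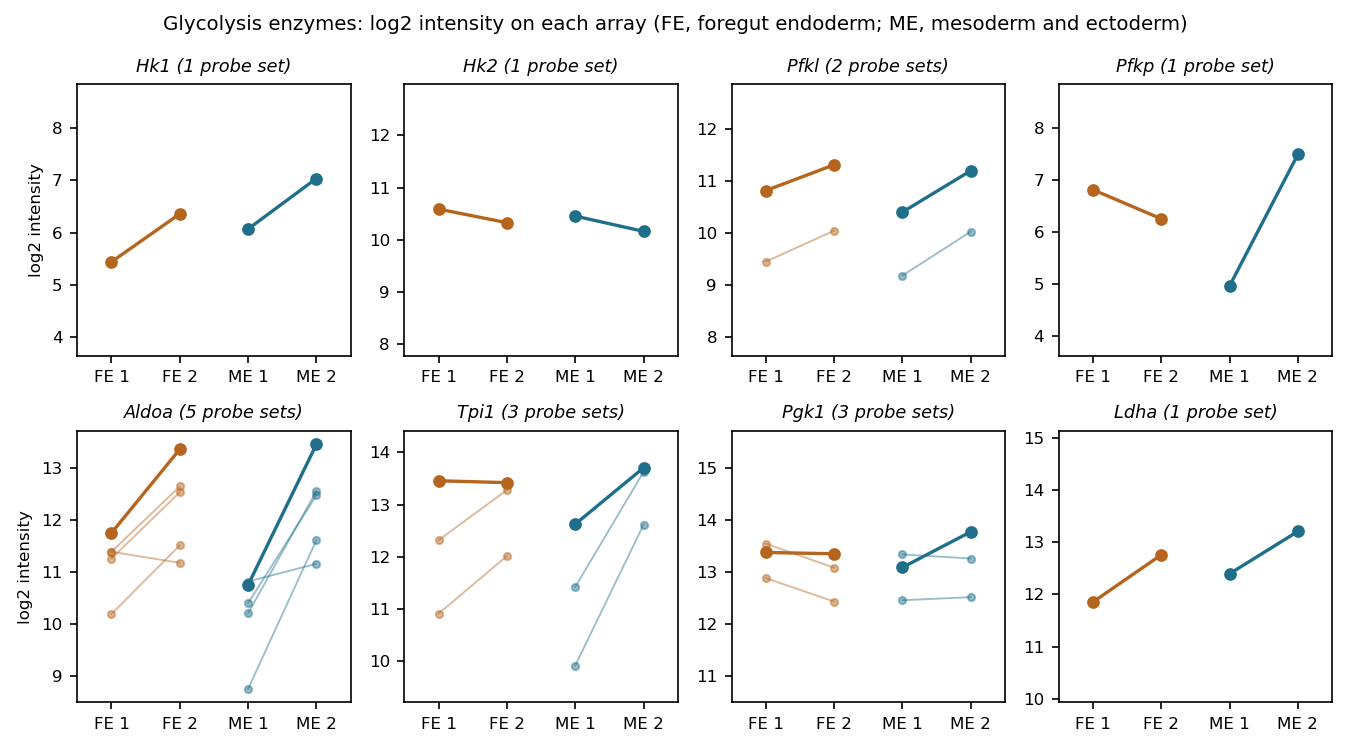
Log2 intensity (vertical axes, each spanning the same range) of the kept probe sets of 8 glycolysis genes on each array, with foregut endoderm (FE) left of mesoderm and ectoderm (ME) and numbers for the experiments. Large dots are the brightest probe set of a gene and faint dots its other probe sets; lines join the arrays of a tissue. Pfkp was lowest in ME 1 (4.97) and highest in ME 2 (7.49), while Hk2 stayed between 10.16 and 10.59.

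Hexokinases phosphorylate incoming glucose, and the 2 measured ones went different ways. Hk1, the widely expressed form (probe set 1437974_a_at), had log2 intensities of 5.44 and 6.36 in foregut endoderm 1 and 2, against 6.07 and 7.03 in mesoderm and ectoderm 1 and 2. Foregut endoderm was the lower tissue in both experiments, by 0.68 in the second and 0.63 in the first, although the ranges of the tissues overlapped. The mean difference was -0.65 ± 0.58 (SE, limma, adjusted p = 1). The other probe set of Hk1, 1420901_a_at, was at the array floor on all 4 arrays. Hk2, the form known from insulin-sensitive and hypoxic tissues (1422612_at), had 10.59 and 10.33 in foregut endoderm 1 and 2, against 10.45 and 10.16 in mesoderm and ectoderm 1 and 2. Its difference of 0.15 ± 0.33 (SE, limma) turned to -0.03 when arrays were centred on their medians.

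Phosphofructokinases set the pace of the pathway at its committed step. Pfkl, the liver-type subunit, had 10.81 and 11.31 in foregut endoderm 1 and 2, against 10.40 and 11.19 in mesoderm and ectoderm 1 and 2 (1439148_a_at). Its second kept probe set, 1450269_a_at, differed by 0.02 in the second experiment and 0.27 in the first, in the same direction but with overlapping tissues. Pfkp, the platelet-type subunit (1416069_at), had the widest change of tissue difference between the experiments among the 8 genes. It had 6.81 and 6.25 in foregut endoderm 1 and 2, against 4.97 and 7.49 in mesoderm and ectoderm 1 and 2. Foregut endoderm was thus 1.23 log2 units lower in the second experiment and 1.84 higher in the first, and both extremes were mesoderm and ectoderm arrays. The mean difference of 0.31 ± 1.00 (SE, limma) became -0.95 when mesoderm and ectoderm 1 was left out and 1.57 without its counterpart of the second experiment. The remaining probe sets (1453541_at of Pfkl, 1430634_a_at and 1437759_at of Pfkp) were dim, with 3.73 for the last in foregut endoderm 1 as the highest value.

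Aldolase A (Aldoa) splits fructose bisphosphate, and triosephosphate isomerase (Tpi1) interconverts the products. The brightest Aldoa probe set (1434799_x_at) had 11.75 and 13.35 in foregut endoderm 1 and 2, against 10.75 and 13.45 in mesoderm and ectoderm 1 and 2. All 5 of its probe sets (the others being 1416921_x_at, 1439375_x_at, 1433604_x_at and 1447734_x_at) were higher in foregut endoderm in the first experiment, by 0.57 to 1.44, while in the second they lay between -0.10 and 0.09. Tpi1 had 13.46 and 13.42 in foregut endoderm 1 and 2, against 12.63 and 13.70 in mesoderm and ectoderm 1 and 2 (1435659_a_at). Its 3 probe sets, 1452927_x_at and 1415918_a_at included, behaved alike, with foregut endoderm lower by 0.28 to 0.60 in the second experiment and higher by 0.83 to 1.00 in the first. Across all 8 probe sets of these genes the lowest array was mesoderm and ectoderm 1.

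Phosphoglycerate kinase (Pgk1) makes the first ATP of the pathway and lactate dehydrogenase A (Ldha) ends it. Pgk1 had 13.38 and 13.35 in foregut endoderm 1 and 2, against 13.09 and 13.77 in mesoderm and ectoderm 1 and 2 (1417864_at). Its mean difference over the 3 probe sets (1438640_x_at and 1439435_x_at are the others) ran from -0.07 to 0.17, with foregut endoderm lower in the second experiment and higher in the first in each. Ldha had 11.85 and 12.76 in foregut endoderm 1 and 2, against 12.40 and 13.21 in mesoderm and ectoderm 1 and 2 (1419737_a_at). Foregut endoderm was lower in both experiments, by 0.45 in the second and 0.54 in the first, with overlapping ranges and a mean difference of -0.50 ± 0.54 (SE, limma, adjusted p = 1). Aldoa, Tpi1, Pgk1 and Ldha are known to have processed pseudogenes in the mouse, and probe sets with an _x_ suffix may also bind similar transcripts.

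Taken gene by gene with the brightest probe set, 2 of the 8 genes (Hk2 and Pfkl) had more signal in foregut endoderm in both experiments, against 37% of 7802 kept genes, and 2 (Hk1 and Ldha) were lower in both, against 24.3%. The other 4 (Pfkp, Aldoa, Tpi1 and Pgk1) were lower in the second experiment and higher in the first, against 25.1%, and 0 were at least 2-fold apart in 1 direction in both, against 3.54% higher and 1.24% lower. For Aldoa only 1434799_x_at and 1433604_x_at switched, while its other probe sets were higher in both. The median difference of the 8 genes was -0.35 in the second experiment and 0.35 in the first, where all kept genes had medians of 0.01 and 0.15. These counts changed when single arrays were left out. However, 1 of the 2 comparisons then sets arrays of different experiments against each other, so it also holds the difference between experiments. Without mesoderm and ectoderm 1, whose partner array then served both comparisons, 6 genes were lower and 1 higher in both and 0 switched, whereas leaving out the second array of that tissue left no gene lower, 5 higher in both and 1 switching. Without foregut endoderm 1 the counts were 0 lower, 1 higher and 6 switching, and without foregut endoderm 2 they were 2, 1 and 5. With median-centred arrays 0 genes were higher in both, as Hk2 changed sign in the first experiment and Pfkl in the second, while Hk1 and Ldha were lower in both under either other scaling too. After quantile normalization Aldoa no longer switched and was higher in both (0.12 in the second and 0.89 in the first), Hk2 was no longer higher in both, and 3 genes switched. The 4 genes that switched did so in the direction of the heart muscle markers, whose medians were -7.75 in the second experiment and 5.40 in the first, and the part of heart tissue in them was not tested.

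**Figure D2:**
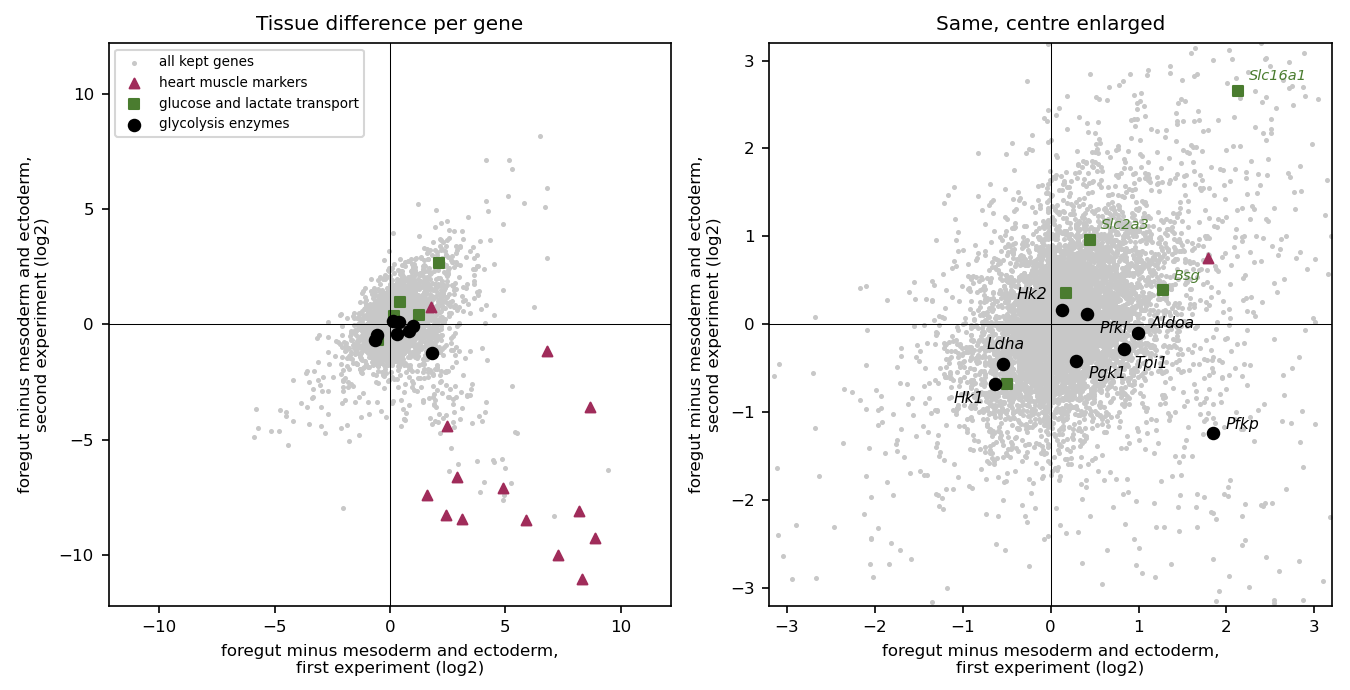
Tissue difference (foregut endoderm minus mesoderm and ectoderm, log2) in the first experiment (horizontal) and the second (vertical), for all 7802 kept genes (grey), heart muscle markers (triangles), glucose and lactate transport genes (squares) and the 8 glycolysis genes (black), with the centre enlarged on the right. The glycolysis genes lie near the centre except Pfkp (1.84 in the first experiment, -1.23 in the second), while Slc16a1 lies at 2.14 and 2.66.

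The second comparison set the second experiment against the first, with the tissue as a further term of the fit. Estimates for the 17 probe sets ran from -0.28 to 2.15 log2 units, and 0 of 17 probe sets passed limma's test (adjusted p from 0.107 to 0.894), as 0% of all probe sets did. At an unadjusted p under 0.05, 8 of 17 were higher in the second experiment and none lower, against 16.3% and 13.7% of all probe sets. Those 8 belong to 4 genes and share targets. Aldoa was the largest, with 13.35 and 13.45 in the second experiment (foregut endoderm, then mesoderm and ectoderm) against 11.75 and 10.75 in the first. Its difference was 2.15 ± 0.39 log2 units, or 4.44-fold (SE, limma, adjusted p = 0.107). Hk1 differed by 0.94 ± 0.22 (limma, adjusted p = 0.128) and Ldha by 0.86 ± 0.22 (0.141), and for both the shift was nearly equal in the tissues, at 0.92 and 0.97 for Hk1 and 0.90 and 0.81 for Ldha. Pfkl lay higher in both tissues as well, by 0.49 and 0.79. Hk2 went the other way, by -0.26 and -0.29 (limma, adjusted p = 0.466). By brightest probe set, 4 of 8 genes (Hk1, Pfkl, Aldoa and Ldha) were higher in the second experiment in both tissues, against 39.3% of kept genes, and 1 (Hk2) was lower in both, against 36.1%. A difference of at least 2-fold in both tissues was reached by 1 gene on the higher side (Aldoa), against 11.2%, and by 0 on the lower side, against 4.87%. By probe set, 10 of 17 were higher in both tissues, against 37.7%, and 5 of them by 2-fold or more, against 11.4%. Those 5 were 4 of Aldoa and 1 of Tpi1. With the mean of a gene's probe sets 5 genes were higher in both tissues, as Tpi1 joined them (0.68 in foregut endoderm, 1.99 in mesoderm and ectoderm). After quantile normalization limma called 4.91% of all probe sets higher and 1.7% lower, and after median centring 2.56% and 0.625%, with 0 of the 17 member probe sets among either.

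Probe sets of the same gene gave unlike values in this comparison for 3 of the 4 genes with several. For Aldoa the difference between experiments ran from 0.06 (1447734_x_at) to 2.15 (1434799_x_at), and for Tpi1 from 0.52 (1435659_a_at) to 1.90 (1415918_a_at). Pgk1 changed sign, from -0.27 (1438640_x_at) to 0.33 (1417864_at), whereas the probe sets of Pfkl lay at 0.64 and 0.72. The control probe sets of Gapdh, which lie along 1 transcript, also gave unlike values. In the order foregut endoderm, mesoderm and ectoderm, they differed by 0.90 and 1.22 at the 3′ end, by 2.35 and 4.05 in the middle and by 4.79 and 6.02 at the 5′ end. The positions of the member probe sets on their transcripts were not used here, so whether position goes with these differences was not tested.

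**Figure D3:**
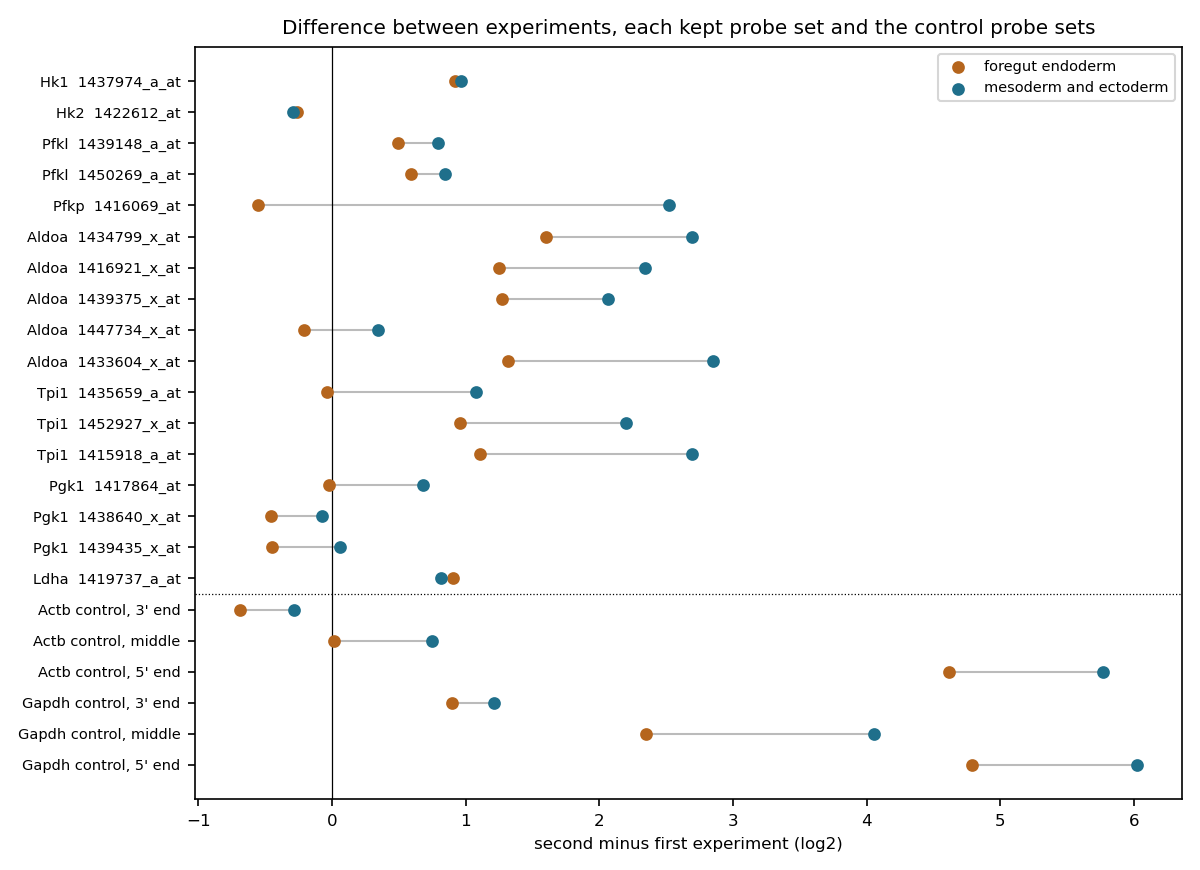
Second minus first experiment (log2, horizontal axis) for each kept probe set of the glycolysis genes and, below the dotted line, for control probe sets of Actb and Gapdh, with 1 dot for each tissue. Member probe sets lie between -0.56 and 2.85, and the 5′ control probe sets between 4.61 and 6.02.

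Promoter sequence is shown for 4 members with contrasting behaviour: Ldha (lower in foregut endoderm in both experiments), Aldoa (largest difference between experiments), Hk2 (lower in the second experiment) and Pfkp (largest switch between tissues). Windows run from 250 bases before to 50 after a transcription start in RefSeq (GRCm38.p6). Capitals mark ACGTG, a form of the core letters bound by hypoxia-inducible factors, on either strand, where overlapping matches count as 1 site. Other forms of that core, such as GCGTG, were not searched, so a window with 0 sites may hold them. Where a gene has several windows, the one with most sites is given, and the lower coordinate where these tie.
Ldha, chr7:46845554-46845853, + strand, 3 sites: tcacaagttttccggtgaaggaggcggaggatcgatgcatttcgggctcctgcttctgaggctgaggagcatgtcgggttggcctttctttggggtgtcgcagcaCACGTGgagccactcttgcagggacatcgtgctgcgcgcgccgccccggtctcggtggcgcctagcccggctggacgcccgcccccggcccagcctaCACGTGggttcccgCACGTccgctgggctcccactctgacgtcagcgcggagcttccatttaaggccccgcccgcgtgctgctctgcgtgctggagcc
Aldoa, chr7:126799129-126799428, - strand, 1 site: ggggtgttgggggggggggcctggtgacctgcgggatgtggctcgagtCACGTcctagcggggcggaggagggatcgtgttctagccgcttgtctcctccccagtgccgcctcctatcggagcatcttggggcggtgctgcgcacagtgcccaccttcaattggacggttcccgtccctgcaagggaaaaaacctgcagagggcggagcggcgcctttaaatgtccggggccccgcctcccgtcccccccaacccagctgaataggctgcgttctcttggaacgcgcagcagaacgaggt
Hk2, chr6:82774405-82774704, - strand, 2 sites: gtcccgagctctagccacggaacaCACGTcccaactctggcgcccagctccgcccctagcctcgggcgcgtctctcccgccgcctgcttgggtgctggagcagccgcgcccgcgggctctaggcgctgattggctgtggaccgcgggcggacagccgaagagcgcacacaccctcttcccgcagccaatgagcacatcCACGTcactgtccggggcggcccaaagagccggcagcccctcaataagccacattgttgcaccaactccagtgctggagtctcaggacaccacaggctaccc
Pfkp, chr13:6648722-6649021, - strand, 0 sites: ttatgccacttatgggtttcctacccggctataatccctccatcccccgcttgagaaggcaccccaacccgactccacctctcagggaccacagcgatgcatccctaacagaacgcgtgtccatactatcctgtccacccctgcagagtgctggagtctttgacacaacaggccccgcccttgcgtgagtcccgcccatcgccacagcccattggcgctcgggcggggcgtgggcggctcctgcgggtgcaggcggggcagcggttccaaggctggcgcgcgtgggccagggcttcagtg
In Ldha 2 of the 3 sites read CACGTG, the E-box core. All 10 members have windows in the table, and 5 of them (Hk1, Hk2, Aldoa, Pgk1 and Ldha) hold ACGTG in at least 1 window, against 21.8% of 27025 genes; by window these counts are 6 of 16, against 19.6%. Of the 4 genes higher in the second experiment in both tissues by brightest probe set, Hk1, Aldoa and Ldha hold a match and Pfkl does not. Hk2, the 1 gene lower there in both, holds one. Such a match is a description of the letters and not a bound site.

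The other genes of the pathway were read from lists. Of 19 further glycolysis enzymes 8 were kept, 0 of which passed limma's test between tissues (0 at an unadjusted p under 0.05). In foregut endoderm 1 was higher in both experiments, against 37% of kept genes, 1 was lower in both, against 24.3%, and 5 were lower in the second and higher in the first, against 25.1%. Ldhb, the lactate dehydrogenase subunit of oxidative tissues (1434499_a_at), had 8.49 and 10.54 in foregut endoderm 1 and 2, against 9.52 and 10.77 in mesoderm and ectoderm 1 and 2. It was thus lower in both experiments, as Ldha was. Pkm, the pyruvate kinase, and Pgam1, the phosphoglycerate mutase, were among those that switched, with differences of -0.35 and -0.64 in the second experiment and 1.13 and 0.04 in the first. The muscle forms Pfkm and Eno3, chosen after their values were seen, lay at -0.29 and -0.54 in the second and at 1.57 and 1.48 in the first. Pgam2, the muscle form of the mutase and likewise chosen after its values were seen, had 2.76 and 2.78 in foregut endoderm 1 and 2, against 2.79 and 9.46 in mesoderm and ectoderm 1 and 2, the last being the array with most heart muscle signal, and was left out by the filter. Between experiments 6 of these 8 enzymes were higher in the second in both tissues, against 39.3% of kept genes, with a median of 0.98, beside 0.75 for the members and 0.01 for all kept genes.

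A lactate transporter differed more between the tissues, by mean log2 difference, than any of the 8 members did. Slc16a1, the monocarboxylate transporter MCT1 that carries lactate and pyruvate (1415802_at), had 12.92 and 13.44 in foregut endoderm 1 and 2, against 10.78 on both mesoderm and ectoderm arrays. The tissues did not overlap, and the mean difference was 2.40 ± 0.36 log2 units, or 5.26-fold (SE, limma, adjusted p = 0.801). Of the 5 kept transport genes of 11, it was the 1 at least 2-fold higher in both experiments by its brightest probe set, against 3.54% of kept genes. Slc2a3, the high-affinity glucose transporter GLUT3 (1437052_s_at), had 13.23 and 13.82 in foregut endoderm 1 and 2, against 12.78 and 12.86 in mesoderm and ectoderm 1 and 2, again without overlap. Another kept probe set of Slc2a3, 1455898_x_at, differed by 0.98 in the second experiment and 0.27 in the first. A dimmer one, 1421924_at, differed by 2.21 and 2.16, but passed the filter only through the foregut endoderm arrays. Slc2a1, the widespread transporter GLUT1 (1434773_a_at), differed by 0.35 in the second experiment and 0.17 in the first. Its other kept probe sets gave unlike values, at 0.68 and -0.01 (1426599_a_at) and at 0.32 and 0.91 (1426600_at). Bsg, the chaperone basigin of the lactate carriers, differed by 0.39 in the second and 1.28 in the first, and Slc16a3, the lactate exporter MCT4, by -0.68 and -0.50. Between tissues 0 of the 5 passed limma's test, and 1 (Slc16a1) had an unadjusted p under 0.05.

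Pyruvate can also enter mitochondria through pyruvate dehydrogenase, and 6 of 14 genes of that step were kept. Pdk1, the kinase that switches the enzyme off (1423747_a_at), had 11.46 and 11.45 in foregut endoderm 1 and 2, against 9.95 and 10.60 in mesoderm and ectoderm 1 and 2. All 3 of its kept probe sets were higher in foregut endoderm, by means of 0.92 to 1.18, of which the highest had an SE of 0.39 (limma, adjusted p = 1). The subunit genes Pdha1 and Pdhb were lower in foregut endoderm in both experiments, by 0.31 and 0.42 in the second and by 0.61 and 0.58 in the first. Of the list 0 genes passed limma's test, and 1 (Pdk1) had an unadjusted p under 0.05.

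**Figure D4:**
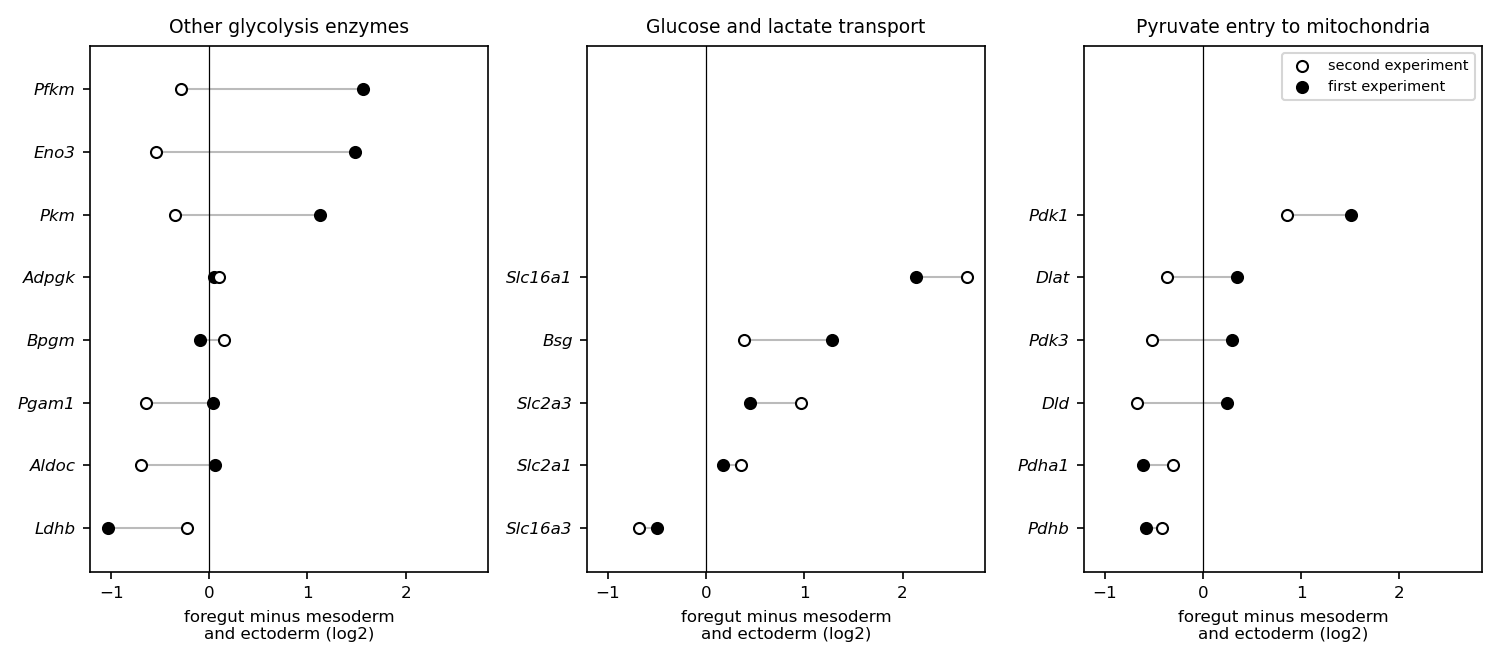
Tissue difference (foregut endoderm minus mesoderm and ectoderm, log2, horizontal axes) of the kept genes of 3 lists, with open dots for the second experiment and filled dots for the first. Slc16a1 and Pdk1 lie to the right in both experiments (2.66 and 2.14, and 0.85 and 1.51), whereas Pkm, Eno3 and Pfkm change sides.

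Among regulators 11 of 15 genes were kept and 0 passed limma's test between tissues (0 at an unadjusted p under 0.05). Hif1a, the oxygen-regulated subunit of the hypoxia-inducible factor, had 11.72 and 10.74 in foregut endoderm 1 and 2, against 11.27 and 11.14 in mesoderm and ectoderm 1 and 2 (1427418_a_at), so the tissues overlapped. Egln1, the prolyl hydroxylase that marks HIF proteins for breakdown, was higher in foregut endoderm in both experiments (0.52 in the second and 0.40 in the first), and so was Vhl, the ligase subunit of the same step (0.43 and 0.76). Epas1, which encodes HIF-2 alpha and is also known from endothelium, differed by 0.48 in the second and 3.46 in the first, beside medians of -2.78 and 2.17 for the endothelial markers. Mycn, a growth-promoting factor, was lower in foregut endoderm by 0.81 and 0.26.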

How the data were processed

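Labelled RNA of 4 samples was hybridized to Affymetrix mouse MOE430 arrays after 2 rounds of linear amplification, per the labels' protocols. The deposited intensity values were made by the authors with GC-RMA, per the series' design text, whereas the submitters' processing notes name RMA; the sources used here do not give versions, and which method set the low values was not settled. Their linear scale was read from the values (4.75 to 75547). Taking log2, the filter (above 5 on at least 2 arrays, 13288 probe sets kept) and all tests were done here. Both comparisons, of tissues and of experiments (the second with tissue in the model), used lmFit and eBayes of limma (version 3.58.1, R 4.3.3, two-sided, Benjamini-Hochberg over all kept probe sets, threshold 0.05). The fits were run on simulated data with large changes and independent noise, where the tissue simulation held no difference between experiments. That check does not show how many changes the tests miss in these arrays. A gene is represented by its brightest kept probe set. Gene symbols are those of the platform annotation (34958 probe sets with 1 symbol, 932 with several, 9211 with none) and promoter windows are from RefSeq (GRCm38.p6).

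Members and lists were chosen with earlier results of these data known. All members are named; other lists give up to 4 genes with the largest tissue difference of 1 sign and up to 3 with the highest level. Sample numbers mark pairs, since the protocols in the labels tie each number to a way of dissection (Pearson's r of same-numbered deviations across probe sets 0.56). The tissue tests printed leave the pairing out, and the fit with the number as a block is an alternative. Alternatives were other filters, quantile normalization, median centring, the replicate number as a block, the mean of a gene's probe sets and leaving out each array. Only 2 arrays per tissue limit the precision, and nothing says that pools were otherwise independent. The SEs and p-values of limma are moderated, as eBayes draws the spread of each probe set towards that of all probe sets fitted. They thus do not measure the spread of a single probe set between these arrays. For Hk1 the SE of the difference between experiments was 0.22 with the filter and 0.026 without it.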

Additional observations from a re-analysis of the deposited data

Results flagged for a closer look

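The tissue difference (foregut endoderm minus mesoderm and ectoderm, log2) had opposite signs in the 2 experiments for 4 glycolysis genes, and the change of sign was not tested, as each experiment holds 1 array of either tissue. For Pfkp it was -1.23 in the second experiment and 1.84 in the first, a change of -3.08. For Tpi1 it was -0.28 and 0.83, a change of -1.11. Aldoa had -0.09 and 1.00, a change of -1.09, and Pgk1 had -0.42 and 0.29, a change of -0.71. These values are of the brightest probe set of each gene. The Aldoa probe sets 1416921_x_at, 1439375_x_at and 1447734_x_at did not change sign, with 0.09, 0.06 and 0.02 in the second experiment. After quantile normalization Aldoa had 0.12 in the second and 0.89 in the first and did not change sign.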

How the results depend on the processing

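Between tissues limma called 0 probe sets as deposited and under every alternative: no filter, a stricter filter, quantile normalization, median centring, the replicate number as a block, and each array left out (range 0 to 0). The block changed no call of a member (adjusted p from 0.515 to 0.987), while 1326 probe sets had an unadjusted p under 0.05 with it, against 500 without. Between experiments limma called 0 probe sets, and 0 without a filter, but 878 after quantile normalization and 423 after median centring, of which 0 were member probe sets; the cause was not tested, and with an array left out no test was possible. The scalings moved the median tissue difference of all kept probe sets from 0.10 as deposited to -0.02 (quantile) and -0.08 (median centring), and the share above 0 from 58.7% to 48.5% and 43.2%. Relative to that median Hk1 lay at -0.75, -0.82 and -0.75 and Ldha at -0.59, -0.44 and -0.59. Tissue differences that turned were Hk2 with median centring (-0.028) and Pgk1 with quantile normalization (0.014); the cause was not tested. With quantile normalization 3 members switched, Aldoa no longer among them. With median centring 0 members were higher in both experiments and 2 were higher or lower in both. With each array left out, members higher in both ranged from 1 to 5, lower in both from 0 to 6, higher or lower in both from 1 to 7, and switching from 0 to 6. Tissue differences then ranged from -0.90 to 1.80 for Aldoa, from 0.00 to 0.30 for Hk2, from -0.13 to 0.66 for Pfkl, from -0.95 to 1.57 for Pfkp, from -0.41 to 0.27 for Pgk1, from -0.27 to 0.81 for Tpi1, from -1.14 to -0.17 for Hk1 and from -0.95 to -0.04 for Ldha. Experiment differences ranged from -0.56 to 2.52 for Pfkp, from -0.025 to 0.68 for Pgk1 and from -0.035 to 1.08 for Tpi1. Leaving out arrays for the counts was chosen after seeing the data. With an array left out, the tissue differences and counts also hold part of the difference between experiments, so they do not show the influence of that array alone.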

Other observations

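Sugar storage and side branches gave a few differences larger than those of the glycolysis members. Pygl, the liver-type glycogen phosphorylase that releases glucose units from glycogen, had log2 intensities of 9.01 and 10.65 in foregut endoderm 1 and 2, against 6.25 and 8.15 in mesoderm and ectoderm 1 and 2. It was the 1 of 9 kept glycogen genes at least 2-fold higher in foregut endoderm in both experiments, against 3.54% of kept genes (2.63 ± 0.97, SE, limma, adjusted p = 1). Gyg, the glycogenin primer, switched, at -2.69 in the second experiment and 2.83 in the first. Pgm2 lay lower in foregut endoderm in both, and Ugp2, which makes UDP-glucose, was at -0.91 in the second and 0.90 in the first. In the pentose phosphate pathway Pgls differed by -1.55 in the second experiment and -0.03 in the first, with log2 intensities below 5 on both arrays of the first. In the same order Pgd differed by -0.40 and -0.20, Taldo1 by -0.88 and -0.09, Rpe by 0.01 and 0.35 and Tkt by 0.32 and -0.29. Pck2 was the 1 kept gene of gluconeogenesis (-0.39 and 0.58).

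Of 12 kept HIF targets outside glycolysis, 8 had more signal in foregut endoderm in both experiments, against 37% of kept genes, and 0 passed limma's test, with 2 (Vegfa and Mxi1) at an unadjusted p under 0.05. Of the others 1 (Ddit4) was lower in both, at -0.12 in the second experiment and -0.90 in the first, against 24.3% of kept genes. A further 3 were lower in the second and higher in the first, against 25.1%. These were Higd1a (-0.84 and 0.12), P4ha1 (-0.49 and 2.74) and Egln3 (-0.02 and 0.10). The 8 higher in both include P4ha2 (0.18 and 1.38) and small differences, such as 0.03 in both for Bnip3 and 0.35 and 0.17 for Slc2a1. The median log2 intensity of kept probe sets was 7.59 and 7.58 in foregut endoderm 1 and 2, against 7.35 and 7.47 in mesoderm and ectoderm 1 and 2. The counts of HIF targets are given for the values as deposited only. Vegfa, the vascular growth factor, had 6.40 and 7.43 in foregut endoderm 1 and 2, against 5.38 and 4.80 in mesoderm and ectoderm 1 and 2. Mxi1, a Myc antagonist, had 8.13 and 8.19 in foregut endoderm 1 and 2, against 7.02 and 6.95 in mesoderm and ectoderm 1 and 2. Kdm3a, a histone demethylase, differed by 0.82 in the second experiment and 0.59 in the first, whereas Bnip3, a mitophagy receptor, lay between 11.85 and 11.89 on all 4 arrays. Slc2a1, which stands in both the transport and this list, is counted in each.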
